A study of Homo sapiens with 6 samples.

Results

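The translation elongation factor genes EEF1A1, EEF1B2, EEF1D, EEF1G, EEF1E1 and EEF2 carried 204 of the 34781 USP39 binding sites in the merged list, or 0.587%. The 6 genes were grouped by their role in translation and were chosen with earlier results of these data known. A site was taken when its central base lay in the gene's span, on the strand that held most of that gene's sites, and outside SNORD and SNORA genes. Of 211 sites within the spans, 7 lay in such snoRNA genes and were left out. USP39 belongs to the tri-snRNP, which delivers the U4, U5 and U6 RNAs to the spliceosome. Its RNA contacts were mapped by iCLIP2, in which UV light joins a protein to the RNA it touches, in wild-type HEK293T cells, a cultured line derived from human embryonic kidney. Irradiation was at 254 nm, an anti-USP39 antibody was used, and a high and a low membrane region of 3 libraries each were collected. The sites form 1 merged list, each 5 nt wide, with a score of 0 for every site. The list therefore gave no value per library, no replicate error and no read depth, and membrane regions could not be compared. A control without UV light was not analysed here and RNA abundance was not measured, so no count below is corrected for expression or for background.

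Elongation factors carry the ribosome along the coding sequence. The protein of EEF1A1, eEF1A, brings aminoacyl-tRNA to the ribosome bound to GTP, and the eEF1B complex recharges it: EEF1B2 and EEF1D encode its nucleotide exchange subunits and EEF1G its structural subunit. EEF2 encodes the GTPase that moves the ribosome by a codon, and EEF1E1, also called AIMP3, encodes an auxiliary protein of the multi-tRNA synthetase complex. The mRNAs of EEF1A1 and EEF2 are textbook members of the terminal oligopyrimidine (TOP) class, whose first bases are a run of C and T and whose translation follows growth signalling.

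Several of these genes had sites at their very first bases, and the RNA sequence there is shown because it is the place in the genes where site and sequence could be read together. The lines give 30 bases of the transcribed strand, 5′ to 3′, from the RefSeq promoter table (GRCh38.p14), with the 5 bases of a USP39 site in capitals. Positions count from 1 at the start listed in that table, and a negative position lies upstream of it.
EEF1A1, site centred at 2, chr6:73521016-73521045, minus strand: cgccgtgaacgtTCTTTttcgcaacgggtt
EEF1A1, site centred at 16, chr6:73521002-73521031, minus strand: tttttcgcaacgGGTTTgccgccagaacac
EEF2, site centred at -2, chr19:3985450-3985479, minus strand: tgttgacgtcagCGTTCtcttccgccgtcg
EEF2, site centred at 4, chr19:3985445-3985474, minus strand: acgtcagcgttcTCTTCcgccgtcgtcgcc
EEF2, site centred at 42, chr19:3985414-3985443, minus strand: ccatcctcggcgcgactcgCTTCTttcggt
EEF1B2, first listed start, site centred at 39, chr2:206159629-206159658, plus strand: tcggtcatctccggcgCTTCTagggctggt
EEF1B2, second listed start, site centred at -2, chr2:206159879-206159908, plus strand: tccggtctcttcGGGTCctttttcctctct
EEF1B2, second listed start, site centred at 4, chr2:206159884-206159913, plus strand: tctcttcgggtcCTTTTtcctctcttcagc
EEF1G, site centred at 27, chr11:62573850-62573879, minus strand: cgccgagaacccCACCCcctttctttgcgg

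EEF2 and the second listed start of EEF1B2 had the same arrangement, with abutting sites centred at -2 and 4. The central base of the EEF2 site at -2 lies outside the gene's span, so the site is not among the 204. With any overlapping base counted, EEF2 had 74 sites. Over these 9 sites, 84.4% of the bases were C or T. Over 486 sites centred in the first 48 nt after a listed start of any protein-coding gene, with chromosome 8 left out, 75.5% of the bases were C or T, and T alone made up 52.5%. The first 50 nt after the listed starts of genes with at least 5 sites held 48.6% C or T and 18.8% T. A high pyrimidine share was thus also found at the start sites of other genes. The sets of sites differ: the 9 include the sites at -2 in EEF2 and EEF1B2, whereas the 486 were counted only from a listed start onward. From 5 nt before to 15 nt after a listed start, the longest unbroken run of C or T on the transcribed strand was 16 nt at the second start of EEF1B2 and 9 nt each at EEF2 and EEF1A1. It was 4 nt at the first start of EEF1B2, at EEF1G and at EEF1E1. This window ends before the sites centred at 39 from the first start of EEF1B2 and at 27 in EEF1G. The EEF1G line above shows a longer run of C and T that begins within its site. A run of at least 6 nt was present at 22.2% of 2125 listed starts of genes with at least 5 sites. These runs are a description of the letters in the window and not of a protein's binding.

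All 6 genes had at least 1 site, where 23.1% of the 20043 protein-coding genes did when counted by the same rule. At least 20 sites were found in 4 of the 6, against 2.01% of protein-coding genes. The 6 genes were chosen with earlier results of these data known. These shares therefore describe the chosen genes and not elongation factors as a class. EEF1A2 and EEFSEC, which were not among the 6, had no site. EEF2 held 73 sites, EEF1D 61, EEF1A1 29, EEF1G 27, EEF1B2 10 and EEF1E1 4. EEF2 and EEF1D together held 134 sites, 65.7% of the 204. Among the 4620 protein-coding genes with a site, EEF2 ranked 24 by number of sites and EEF1D 43, while EEF1A1 ranked 189, EEF1G 213, EEF1B2 825 and EEF1E1 1771. The median over the 6 genes was 28 sites, against 3 over all protein-coding genes with a site and 7 over those with at least 3 sites.

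Because the spans differ in length, from 3320 nt in EEF1B2 to 29189 nt in EEF1E1, the numbers were also set per kb of span, introns included. EEF2 was densest at 7.76 sites per kb over 9408 nt, followed by EEF1A1 with 5.49 per kb over 5283 nt. EEF1D had 3.45 sites per kb over 17688 nt and EEF1B2 had 3.01, so the exchange subunits, 61 against 10 sites by number, differed by 1.15 times in density. EEF1G had 1.89 sites per kb over 14296 nt and EEF1E1 0.137. Among the 1770 protein-coding genes with at least 5 sites, EEF2 ranked 29 by density, EEF1A1 69, EEF1D 155, EEF1B2 184 and EEF1G 309. The median density was 3.23 sites per kb over the 6 genes and 0.126 over all protein-coding genes with a site. Over the 2540 protein-coding genes with at least 3 sites it was 0.322. Over the 1216 of these with spans within the range of the 6 it was 0.591. It was 3.21 over 46 large ribosomal subunit genes with at least 3 sites, and 0.768 over 29 genes whose symbols start with EIF and a digit, a group that holds initiation factors and some of their kinases and binding proteins. With sites at most 50 nt apart joined into 1, EEF2 had 4.46 sites per kb, EEF1D 2.71, EEF1A1 2.65, EEF1B2 2.41, EEF1G 0.909 and EEF1E1 0.103. EEF1D then stood before EEF1A1, and the values of EEF2, EEF1A1 and EEF1G were lower by over 1.5 times.

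**Figure D1:**
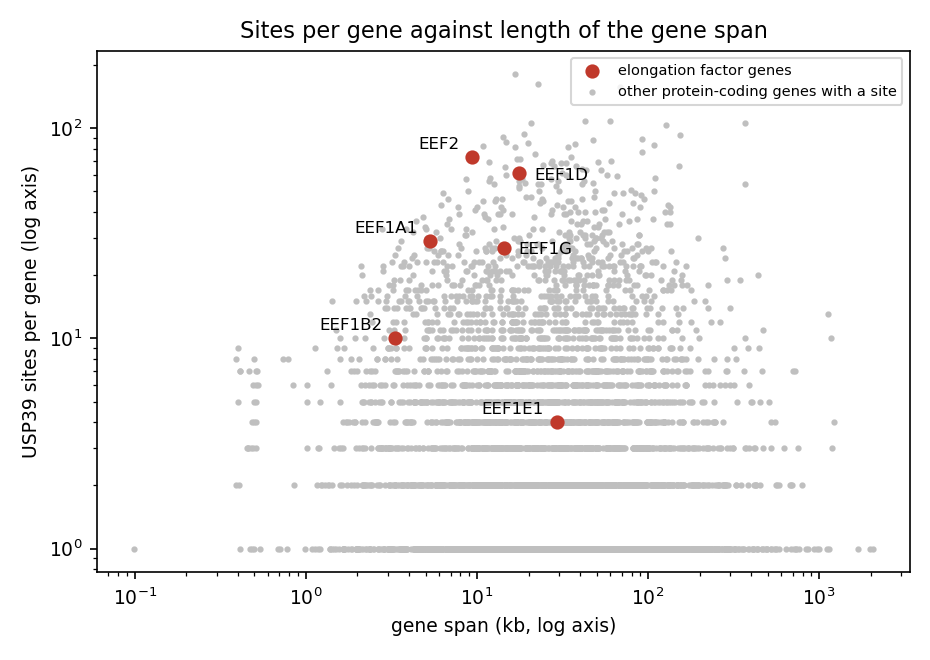
Number of USP39 sites per gene (vertical log axis) against the length of the gene span in kb (horizontal log axis), with the 6 elongation factor genes as large red points and the other protein-coding genes with a site as small grey points. EEF2 with 73 sites and EEF1A1 with 29 lie near the upper edge of the cloud for their lengths, and EEF1E1 with 4 lies inside it.

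EEF2, the translocation factor, had sites from near the start to near the end of its span. Its sites ran from 4 to 9346 nt of a span of 9408 nt, between positions 3976116 and 3985462 of chromosome 19 on the minus strand. Sites centred at 4, 42, 50 and 64 were followed by the longest stretch without a site, 1056 nt, up to the site at 1120. From there on every 1000 nt held between 4 and 12 sites, the most between 4001 and 5000 nt, and the last 408 nt held 9. Of 3 equal parts of the span, the 5′ part held 17 sites, the middle part 23 and the 3′ part 33. In the last 10% there were 15 sites (20.5%, exact 95% binomial interval 11.98% to 31.6%, which covers counting error only, as do all such intervals here). The largest group of sites with gaps of at most 50 nt had 6 sites, centred from 9167 to 9251 nt. Of the 73 sites, 51 (69.9%) had a neighbour within 50 nt.

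EEF1A1, the carrier of aminoacyl-tRNA, had its 29 sites between the start and 56.3% of the span. They were centred between 2 and 2973 nt from the start, from position 73518058 to 73521033 of chromosome 6 on the minus strand, and the last 2310 nt, 43.7% of the listed span, held 0 sites. Of 3 equal parts of the span, the 5′ part held 14 sites and the middle part 15. For 0 of 29 sites in the last 10% the exact 95% interval reached 11.9%. Of the 5 elongation factor genes with at least 10 sites, EEF1A1 was the only one without a site in the last 10%, as were 20.3% of the 912 protein-coding genes with at least 10 sites. Between its first and last site EEF1A1 had 9.76 sites per kb, compared with 7.81 in EEF2, so the order of these genes by density depends on how much of the span is counted. Sites stood close together in EEF1A1, with 25 of 29 (86.2%, exact interval 68.3% to 96.1%) within 50 nt of another and a median gap of 35 nt. The largest such group was at 2772, 2782, 2787 and 2796 nt.

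EEF1D, the δ exchange subunit, had 61 sites spread over 17688 nt on chromosome 8. They ran from 7 to 17600 nt after the start of the span, on the minus strand. The density fell towards the 3′ end, with 25 sites in the 5′ part of 3 equal parts, 24 in the middle part and 12 in the 3′ part. The stretch from 6001 to 7000 nt held 10 sites. The longest stretch without a site, 1543 nt, lay between 11279 and 12822 nt. The last 10% held 3 sites (4.92%, exact interval 1.03% to 13.7%). In EEF1D 22 of 61 sites had a neighbour within 50 nt (36.1%, exact interval 24.2% to 49.4%), the lowest share of the 6 genes at this distance, and the median gap was 204.5 nt. The order depends on the distance: within 20 nt the share was still 36.1% in EEF1D, while it was 34.2% in EEF2 and 2 of 10 sites in EEF1B2. With abutting sites joined first, the share within 50 nt was 36.1% in EEF1D and 22.2% in EEF1B2. No sites abutted in EEF1D, and joining sites at most 50 nt apart left 48.

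EEF1B2, the α exchange subunit, had 10 sites on chromosome 2, plus strand. They were centred at 39, 285, 290, 1012, 1226, 1263, 1759, 1846, 2911 and 2991 nt. The stretch of 1065 nt between 1846 and 2911 held no counted site, but it holds SNORD51 and SNORA41, whose sites were left out. In the first 10% of the span were 3 of the 10 sites (exact interval 6.67% to 65.2%), all shown above beside the listed starts. With 10 sites, the place along the gene is known only roughly.

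EEF1G, the structural subunit of eEF1B, had its 27 sites in 4 blocks separated by stretches of over 1000 nt without a site, on the minus strand of chromosome 11. The first was the single site at 27 nt, the second held 12 sites from 1184 to 2908 nt, the next 5 sites from 6376 to 6890 nt, and the last 9 sites from 13559 to 14188 nt. Between the last 2 blocks 6669 nt, the longest empty stretch in the gene, had no site. Sites were crowded within the blocks: 24 of 27 (88.9%, exact interval 70.8% to 97.6%) had a neighbour within 50 nt and the median gap was 34 nt. The last 10% of the span held 9 sites (33.3%, exact interval 16.5% to 54.0%). The sites at 6883 and 6890 nt lay 2 and 9 nt past the span of MIR6747, a microRNA gene, in the direction of EEF1G. Without them EEF1G had 25 sites. Split at stretches of over 1000 nt in the same way, EEF1D also had 4 blocks, of 49, 6, 3 and 3 sites. EEF1B2, EEF1E1 and EEF2 had 2 blocks each.

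EEF1E1, the synthetase complex protein, had the fewest sites, and most of them belonged to the neighbourhood of another RNA. Its 4 sites were centred at 16013, 16080, 16095 and 22819 nt. SCARNA27, a small Cajal body RNA gene of 126 nt, lies within EEF1E1 from 16016 to 16141 nt. The sites at 16080 and 16095 lay inside it, and the site at 16013 lay 3 nt before it, so only the site at 22819 stood apart. The strand of SCARNA27 was not in the tables used, and whether these sites mark its RNA or that of EEF1E1 was not tested. With sites in or within 10 nt of any small RNA gene left out, EEF1E1 had 1 site. A read-through locus, EEF1E1-BLOC1S5, covers the whole of EEF1E1, so leaving out sites shared with any other gene left 0.

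**Figure D2:**
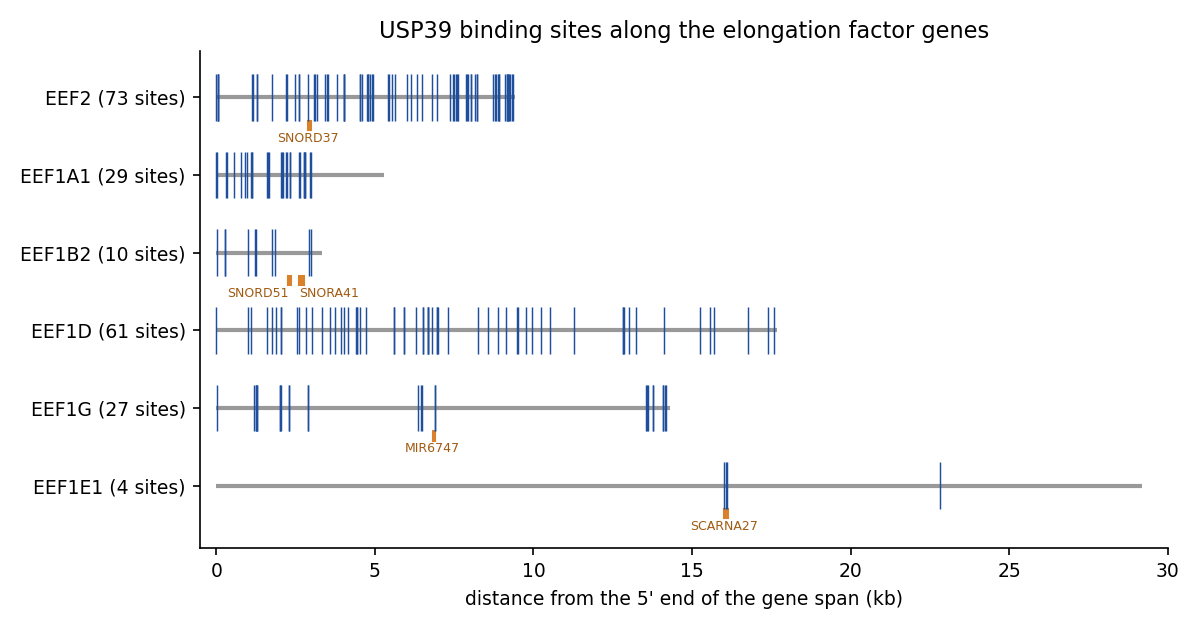
Each grey line is the span of an elongation factor gene, drawn to scale by distance from its 5′ end in kb, and each blue tick is the centre of a USP39 site. Orange boxes mark small RNA genes within the spans. Sites run from 4 to 9346 nt in EEF2, with an empty stretch of 1056 nt, stop at 2973 nt in EEF1A1 and gather at SCARNA27 in EEF1E1. Split at stretches of over 1000 nt without a site, EEF1G and EEF1D each fall into 4 blocks.

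Over the 6 genes together, the last 10% of the span held 28 of 204 sites (13.7%), against 24.0% of 29864 sites in 2540 protein-coding genes with at least 3 sites. In the 1216 of those genes whose spans are as long as those of the 6, the share was 19.8%. In the 46 large ribosomal subunit genes it was 9.47% and in the 29 EIF genes 18.5%. The 6 genes did not share this pattern: EEF1G had 33.3% and EEF2 20.5% of sites in the last 10%, EEF1B2 10.0%, EEF1D 4.92%, and EEF1A1 and EEF1E1 none. The first 10% held 21 sites (10.3%), against 10.9% in genes with at least 3 sites. These shares come from 1 merged list, and the differences between them were not tested. In the background shares, a site in overlapping genes was counted for each of those genes.

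**Figure D3:**
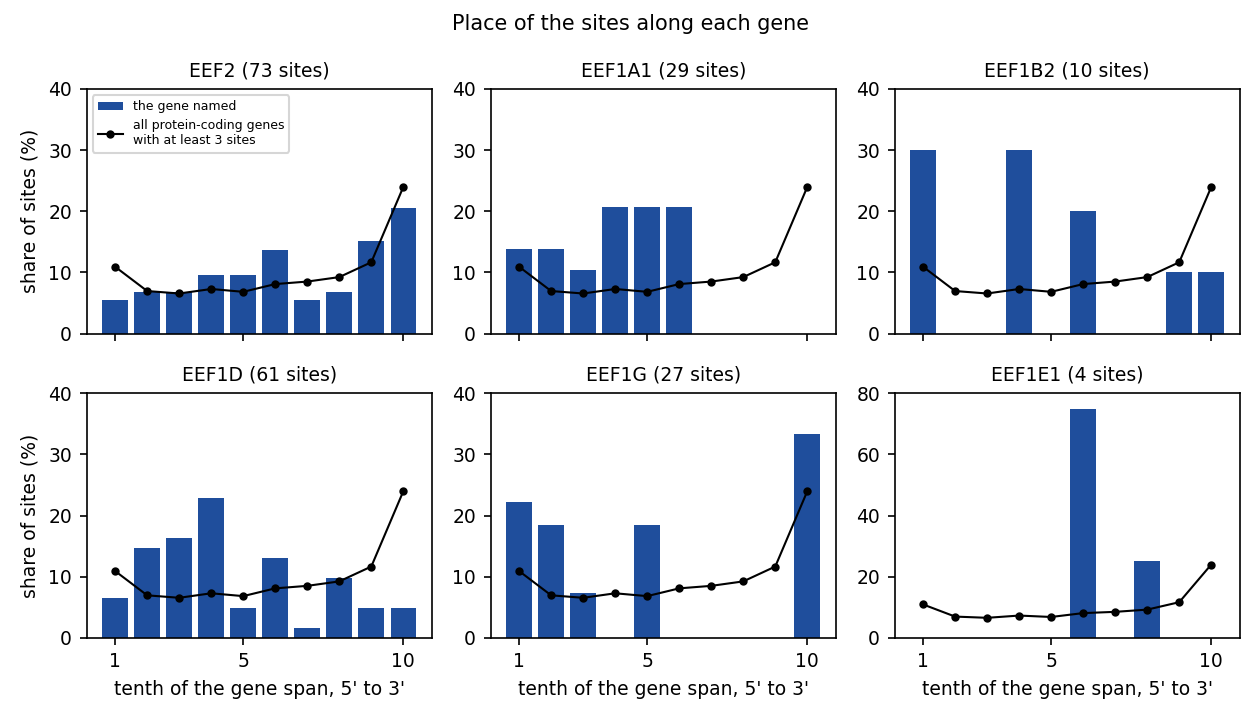
Share of a gene's sites (%) in each of 10 equal parts of its span from 5′ to 3′. Blue bars are the gene named above the panel, and the black line is the pooled share over all protein-coding genes with at least 3 sites. The line reaches 24.0% in the last part, where EEF1G has 33.3%, EEF2 20.5% and EEF1A1 none. The axis of EEF1E1, with 4 sites, runs higher than the others.

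Many sites of these genes stood close to another. A neighbour within 50 nt was present for 128 of the 204 sites (62.7%), against 35.4% in protein-coding genes with at least 3 sites and 41.6% in those with spans as long. In the large ribosomal subunit genes the share was 62.5% and in the EIF genes 39.4%. Genes with many sites per kb would have more neighbours if sites were placed at random, and this was not corrected for. Within the 6 genes EEF1G and EEF1A1 had the highest shares, although EEF1G had a lower density than EEF1D, whose share was 36.1%.

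A site in the first 50 nt of the span was found in all 5 of the genes with at least 5 sites, namely EEF1A1, EEF1B2, EEF1D, EEF1G and EEF2. Among all protein-coding genes with at least 5 sites the share was 17.1%, and among the 402 with at least 20 sites it was 26.1%. EEF1A1 had sites at 2 and 16 nt, EEF2 at 4, 42 and 50 nt, EEF1D at 7 nt, EEF1G at 27 nt and EEF1B2 at 39 nt. EEF1E1 had none. Other genes of the translation machinery also had such sites: 29 of 44 large ribosomal subunit genes with at least 5 sites (65.9%) and 10 of 26 EIF genes (38.5%). The pattern was therefore not particular to the elongation factors, and it was noticed in the data before it was counted.

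**Figure D4:**
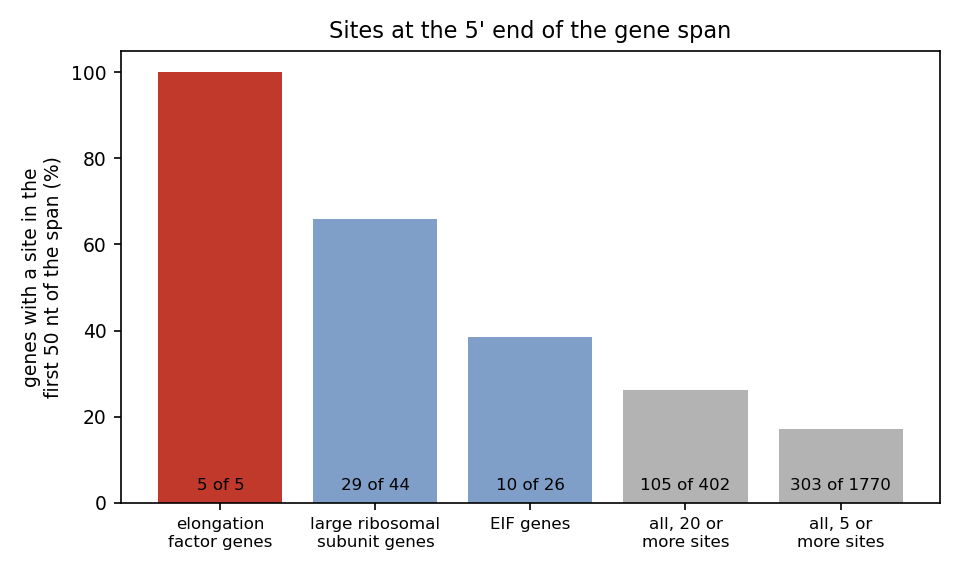
Share of genes (%) with a USP39 site centred in the first 50 nt of the span, with the number of genes in each bar. From left to right are elongation factor genes, large ribosomal subunit genes and EIF genes, each with at least 5 sites, then all protein-coding genes with at least 20 and with at least 5 sites. The elongation factor genes stand at 5 of 5, the ribosomal genes at 29 of 44 and all genes with at least 5 sites at 303 of 1770.

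The median number of sites per gene was 28 in the 6 elongation factor genes, against 1 in a set of related genes. Both sets were chosen with earlier results of these data known, so this difference is only a description. Of the 37 genes in 5 lists 21 had a site, 216 sites in all, where 23.1% of all protein-coding genes had a site. Neither EEF1A2, the isoform of eEF1A known from brain and muscle, nor EEFSEC, the factor for selenocysteine, had a site. Of 13 genes for the eEF2 kinase, methyltransferases of elongation factors and enzymes of diphthamide synthesis, which modify eEF2, 4 had a site: EEF1AKMT2 with 8, DPH7 with 3, and EEF2K and DPH2 with 1 each. Of 11 genes of the multi-tRNA synthetase complex with VARS1, the valyl-tRNA synthetase that binds eEF1, 10 had a site, led by IARS1 with 49, LARS1 with 25, MARS1 with 24, and EPRS1 and QARS1 with 17 each. QARS1 was the densest of them at 1.93 sites per kb. EEF1E1, with 4 sites, lay within the range of this complex, whose median was 2. Of the mitochondrial elongation factor genes TUFM had 17 sites (4.32 per kb) and TSFM 2, and GFM1 and GFM2 had none. TUFM, the mitochondrial counterpart of EEF1A1, had a site in the first 50 nt and none in the last 10% of its span. In these lists IARS1 and QARS1 also had sites in the first 50 nt, and LARS1 had none in the last 10%. A site in the first 50 nt was present in 17.1% of protein-coding genes with at least 5 sites. Of those with at least 10 sites, 20.3% had none in the last 10%. Of 7 genes for eIF5A, termination and recycling, 5 had a site, with 18 in EIF5A, 12 in GSPT1, 6 in ETF1, 5 in ABCE1 and 3 in HBS1L.

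Several of the genes have listed pseudogenes, and reads from near-identical copies can be placed wrongly or dropped. Of the 75 listed under these gene names, EEF1A1 has 50, EEF1B2, EEF1D and EEF1G have 8 each, EEF1E1 has 1 and EEF2 has none. A site was found in 2 of the 75, EEF1A1P6 and EEF1DP1, with 1 each. How the authors treated reads with several matches is not given in the sources used here, so the number of sites in EEF1A1 is uncertain. On the strand, all 211 sites within the 6 spans lay on 1 strand of their gene, and this was the annotated strand in the 5 genes that the promoter table lists. The strand of each gene was taken from its sites, and for EEF1D, which is not in that table, it could not be compared.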

How the data were processed

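The file is a BED list of binding sites; the score that the authors deposited is 0 for each of its 34781 sites. Start and end, the other deposited values, were used as given. The submitters' processing notes name the build GRCh38.p12 and, with neither role nor order, UMI-tools 1.1.2, STAR 2.7.3a, bedtools 2.29.2, FastQC 0.11.9 and SAMtools 1.10. Which caller made the sites and which libraries were merged is not given in the sources used. The labels give 6 libraries, 3 named high and 3 named low.

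Gene spans came from a RefSeq table of GRCh38.p14, which has no exons, so exons, introns and UTRs were not separated. Start sequences and the strands of the listed starts came from its promoter table. For place along a gene, every gene, in the 6 and in the background, was oriented by the strand that held most of its sites. A background gene whose sites lay mostly on the opposite strand was thus read in reverse. Every protein-coding gene was counted by the rule used for the 6 genes, and overlapping genes each kept their sites. Place along a gene used genes with at least 3 sites, and density ranks genes with at least 5. No tests were run, since 1 merged list has no replicates. Members and lists were chosen with earlier results of these data known. All 6 members and, in each related list, at most the 5 genes with most sites were named, plus genes without a site in the 2 lists of paralogs and mitochondrial factors, named after their values were seen. The counting was tested on simulated data, where 100% of 200 genes gave back their sites. The software was scipy 1.17.1, pandas 2.3.3, matplotlib 3.10.9 and numpy 2.4.6 under Python 3.11.15.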

Additional observations from a re-analysis of the deposited data

Results flagged for a closer look

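The counts above leave out 7 sites in snoRNA genes within the spans, a signal outside the main measurement. SNORA41, an H/ACA box RNA gene within EEF1B2, held 3 of them, at positions 1, 30 and 92 of its 132 nt. SNORD51, a C/D box RNA gene in the same host, held 2, at positions 1 and 33 of 70 nt. SNORD37, within EEF2, held 2, at positions 12 and 20 of 66 nt, and another site, counted for EEF2, lay on the base just before its first. With these sites EEF1B2 had 15 and EEF2 75. Whether they mark the snoRNA or the host's intron was not tested.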

How the results depend on the processing

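With sites at most 50 nt apart joined, the 6 genes had 128 sites in place of 204 and 1.62 per kb in place of 2.58. The last 20% of the spans held 21.1% of sites and the first 20% held 21.6%, as wider windows must hold more. A neighbour lay within 20 nt for 42.6% of sites and within 100 nt for 76.5%, in place of 62.7% within 50 nt. The total stayed within 1.5 times of 204 with any overlap counted, snoRNA sites kept, abutting sites joined, sites in other genes left out, both strands counted, or sites near small RNAs left out, an alternative chosen after seeing the data. For the start sites, the first 100 nt of the span and 50 nt on either side of any listed start were tried after seeing the data: the shares of all genes were 25.9% and 24.97%, in place of 17.1%, and EEF1D is not among the genes with a listed start. Splice sites, exons and sequence beyond the starts were not analysed. No paired analysis was possible because the merged list has no values per library, and for the same reason no replicate could be left out.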
